A study of Mus musculus with 8 samples.

Results

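Notch signalling in the injured cortical vessels was followed through 10 genes, chosen by symbol among the 21848 genes listed in the files: the receptors Notch1, Notch2, Notch3 and Notch4, the ligands Dll1, Dll4, Jag1 and Jag2, and the target genes Hey1 and Heyl. All 10 were found. They were measured by single-cell RNA-seq in 8 female mice, labelled Bl/J6, which had all received photothrombosis (PT), a light-induced clotting of cortical vessels that models ischemic stroke, over 4 mm of the right sensorimotor cortex. Of these, 4 mice carried pumps with saline and 4 carried pumps with ancrod, a snake venom enzyme that depletes fibrinogen, at 2.4 U per day, implanted 2 days before PT. The lesion and 1 mm of spared tissue were dissociated 6 days after PT without sorting. There was no uninjured mouse, so nothing here compares injured with healthy vessels, and the meninges had been stripped off before dissociation.

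Notch receptors and their ligands are both membrane proteins, so that signalling passes between cells in contact. Ligand binding leads to cleavage of the receptor, and the released intracellular part enters the nucleus, binds the DNA-binding protein RBPJ and switches on repressor genes of the Hes and Hey families. In blood vessels the pathway is known for arterial identity, for the choice between tip and stalk cells during sprouting, and for the maintenance of pericytes and smooth muscle cells, which together are called mural cells.

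Droplets with at least 2000 UMIs (unique molecular identifiers, each standing for 1 captured RNA molecule) and under 20% mitochondrial UMIs were grouped into classes by marker genes, with the 10 genes themselves left out of the grouping. The classes are called arterial-like, capillary-like, venous-like and tip-like for endothelial cells, and pericyte-like, smooth muscle-like, fibroblast-like, astrocyte-like and microglia-like for the others. They held 639, 4651, 1106, 289, 1170, 210, 2071, 4224 and 16991 droplets, respectively, of 46216 kept. Marker levels are given here for the endothelial and pericyte lists only. The 7 endothelial markers summed to 12660 to 15220 CPM (UMIs scaled to a class total of 1e+06) in the tip-like class and 188 to 333 in the pericyte-like class. The 7 pericyte markers summed to 29180 to 32800 CPM in the pericyte-like class. Zones shared some markers: Adm and Plvap, of the tip list, were among the leading genes of a capillary-like and a venous-like cluster, respectively. Smooth muscle-like sums still held 1862 to 5847 CPM of pericyte markers. Ancrod libraries held more UMIs in all than saline libraries, 126682918 to 142139441 against 97861434 to 122758649, and the median per droplet ranged from 10653 to 17575 over the 8 libraries. Libraries shared 3 to 15 barcodes per pair. In each case the mouse was the replicate. By the labels, batch 2 (injury and sequencing) held saline mouse 4 and ancrod mouse 4 only, and the other 6 mice formed batch 1.

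The 10 genes lie on 5 chromosomes of the files' build, GRCm39: Notch1 (chr2:26347915-26406675), Dll4 (chr2:119156170-119166443) and Jag1 (chr2:136923373-136958693), Hey1 (chr3:8726956-8732385) and Notch2 (chr3:97920800-98057677), Heyl (chr4:123127349-123143682), Jag2 (chr12:112871421-112893437), and Dll1 (chr17:15587276-15597134), Notch3 (chr17:32339794-32385893) and Notch4 (chr17:34783220-34807477). RefSeq promoter sequences, on the older build GRCm38.p6, were matched by symbol for 8 of the 10, and Hey1 and Heyl had no entry. The 250 bases before the start are shown for the mural receptor Notch3 and for the endothelial receptor and ligands Notch4, Dll4 and Jag2, because their levels separate the mural from the endothelial layer of the wall. Capitals mark CG dinucleotides, and each sequence is read 5′ to 3′ on the gene's own strand.
Notch3, chr17:32166891-32167140, minus strand: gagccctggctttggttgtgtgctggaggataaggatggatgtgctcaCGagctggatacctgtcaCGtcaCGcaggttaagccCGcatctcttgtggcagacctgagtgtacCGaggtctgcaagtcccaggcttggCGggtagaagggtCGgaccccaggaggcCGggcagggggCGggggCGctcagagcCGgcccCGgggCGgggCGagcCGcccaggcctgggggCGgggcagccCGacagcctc
Notch4, chr17:34564045-34564294, plus strand: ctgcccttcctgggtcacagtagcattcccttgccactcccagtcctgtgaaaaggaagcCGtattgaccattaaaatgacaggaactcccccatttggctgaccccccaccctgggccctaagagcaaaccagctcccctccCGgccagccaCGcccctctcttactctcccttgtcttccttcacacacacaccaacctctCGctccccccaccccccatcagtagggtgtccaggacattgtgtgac
Dll4, chr2:119325534-119325783, plus strand: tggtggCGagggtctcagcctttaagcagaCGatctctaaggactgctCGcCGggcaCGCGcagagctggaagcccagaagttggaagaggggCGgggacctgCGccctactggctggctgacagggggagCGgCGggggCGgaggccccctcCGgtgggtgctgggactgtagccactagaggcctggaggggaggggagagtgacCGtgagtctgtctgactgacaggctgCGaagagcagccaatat
Jag2, chr12:112929496-112929745, minus strand: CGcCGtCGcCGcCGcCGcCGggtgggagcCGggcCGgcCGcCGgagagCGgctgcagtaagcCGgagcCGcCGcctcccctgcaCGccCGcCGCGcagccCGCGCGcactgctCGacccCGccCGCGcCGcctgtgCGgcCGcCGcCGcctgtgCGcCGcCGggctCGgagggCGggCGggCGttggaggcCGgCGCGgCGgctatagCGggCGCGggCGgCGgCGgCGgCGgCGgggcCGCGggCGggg
CG dinucleotides numbered 4 in Notch4, 14 in Dll4, 17 in Notch3 and 54 in Jag2, beside a median of 6.0 over 32851 RefSeq promoters. In the tabulated windows, which run from 250 bases before to 50 bases after the start, 3 motifs were searched on both strands: TGGGAA, the core letters bound by RBPJ, CACGTG, an E-box bound by Hes and Hey repressors, and GGAAGT, a core of endothelial ETS factors. None of the 9 windows of the 8 genes held any of them, while 25.6%, 7.15% and 23.8% of all windows did. Among other genes of the pathway, Hey2 held TGGGAA 3 and 207 bases before its start and Hes5 held it 82 and 226 bases before. Nrarp held no TGGGAA and held CACGTG 108 bases before its start. No share over the 46 other pathway genes is given for these matches, so they cannot be set beside the shares of all windows.

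The receptors divided the vessel wall. Notch3, the receptor of mural cells, reached 1188 ± 79.4 CPM in the pericyte-like class (mean ± SD, n = 8 mice, as in all levels that follow) and 690 ± 177 in the smooth muscle-like class, and no other class passed 29.2 ± 4.9, the level of the astrocyte-like class. The ranges over mice of the pericyte-like, smooth muscle-like, astrocyte-like and fibroblast-like classes (11.5 ± 3.2) did not overlap, and those from the fibroblast-like class downward did. Arterial-like, capillary-like, venous-like and tip-like sums held 5.90, 3.39, 3.27 and 2.76 CPM. A Notch3 UMI was seen in 98.1% of pericyte-like droplets (median 5501.5 UMIs) and in 0.509% of microglia-like droplets (median 15421 UMIs), and with each droplet thinned to 2000 UMIs in 87.2% and 0.068%. Droplets of at most 100 UMIs, which hold free RNA, gave a median of 19.5 CPM of Notch3, above its level in each endothelial class. Here and below, such a median is the level within free RNA itself. It is not a floor for a class, and microglia-like sums held 0.321 CPM of Notch3. The share of free RNA in each droplet was not measured.

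Notch1, the broadly used endothelial receptor, was shared between both layers of the wall. It was at 289 ± 42.2 CPM in the pericyte-like class and 279 ± 42.7 in the arterial-like class, whose ranges overlapped, ahead of the capillary-like (183 ± 14.5) and tip-like (169 ± 16.3) classes. Astrocyte-like and venous-like sums, at 143 ± 15.5 and 140 ± 9.4, could not be ordered, with each higher in 4 of 8 mice. Smooth muscle-like sums held 91.3 ± 12.9 CPM, below every venous-like and above every microglia-like value. The microglia-like (35.6 ± 0.8) and fibroblast-like (23.3 ± 7.9) levels lay under the median of free RNA for Notch1, 47.9 CPM.

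Notch4, a receptor largely restricted to endothelium, followed the order arterial-like (87.6 ± 11.6 CPM), tip-like (70.6 ± 13.5), capillary-like (52.4 ± 10.5) and venous-like (35.8 ± 7.0). Each step of that order was seen in 8 of 8 mice, although the ranges of neighbouring zones overlapped. Pericyte-like sums held 15.6 ± 6.1, apart from the venous-like range, and the smooth muscle-like class held 5 UMIs in all mice together. Notch2, which is known from mural cells and many myeloid cells, had the opposite distribution. Among the vessel wall and glial classes named above, it led in the fibroblast-like class (172 ± 19.7 CPM). The microglia-like (128 ± 14.5), smooth muscle-like (100 ± 30.5) and astrocyte-like (95.4 ± 19.6) classes followed. The 4 endothelial zones held 12.04 to 20.6 CPM of Notch2 on average, under its free RNA median of 80.0.

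**Figure D1:**
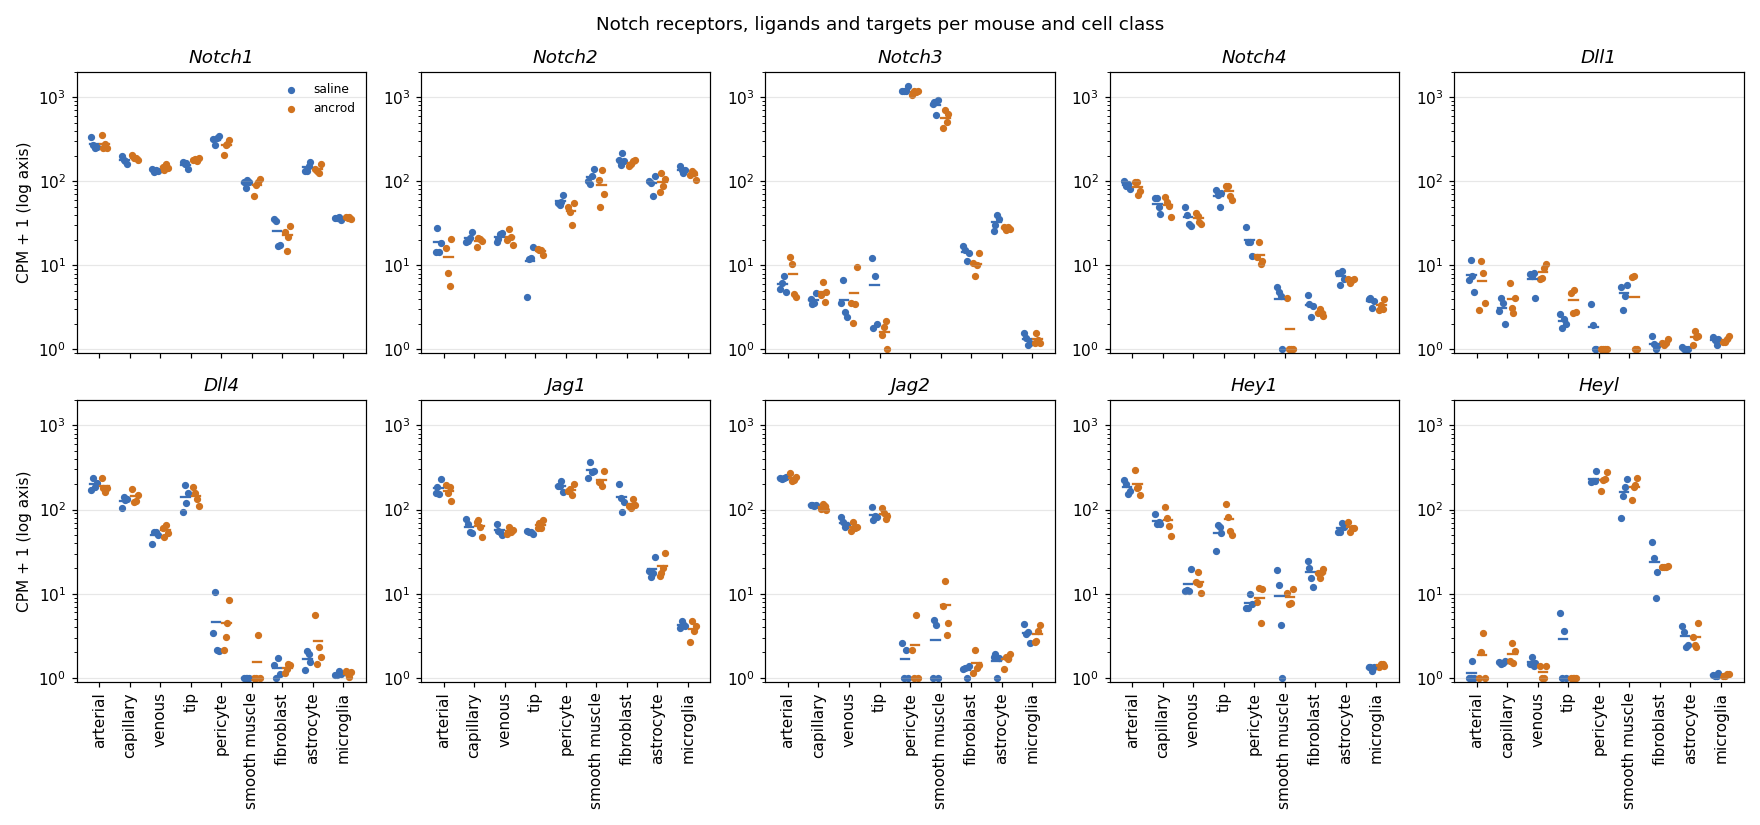
CPM + 1 on a log axis of the 10 genes in each of 9 cell classes, with 1 point per mouse (saline blue, ancrod orange) and a line at each group's mean. Notch3 and Heyl stand highest in pericyte-like and smooth muscle-like sums and Notch4, Dll4, Jag2 and Hey1 in arterial-like sums, and the 2 colours lie on each other in most classes.

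Among the ligands, Dll4 and Jag2 were endothelial and Jag1 was found in every class of the wall. Dll4, the ligand that tip cells and arteries present, stood at 195 ± 30.1 CPM in arterial-like, 143 ± 36.3 in tip-like, 134 ± 21.7 in capillary-like and 52.0 ± 8.4 in venous-like sums. The next class, pericyte-like, held 3.54 CPM, under the free RNA median of 11.3, and smooth muscle-like sums held 1 UMI. With droplets thinned to 2000 UMIs, 27.9% of arterial-like and 0.0179% of microglia-like droplets had a Dll4 UMI, and without thinning 79.7% (median 12441 UMIs) and 0.220%.

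Jag2 was at 237 ± 15.8 CPM in the arterial-like class and 109 ± 6.6 in the capillary-like class, with no overlap between them, then at 86.8 ± 11.5 in tip-like and 65.2 ± 8.0 in venous-like sums. Outside the endothelium, the pericyte-like, smooth muscle-like, fibroblast-like, astrocyte-like and microglia-like means did not pass 4.02 CPM, below the free RNA median of 13.3. Jag1, the ligand through which endothelium instructs smooth muscle, was highest in the smooth muscle-like class itself, at 259 ± 57.1 CPM, and higher there than in the pericyte-like class (181 ± 21.9) in 8 of 8 mice. Arterial-like (174 ± 32.7) and fibroblast-like (126 ± 32.9) sums followed, with overlapping ranges. The 3 other endothelial zones held 55.4 to 62.4 CPM, with overlapping ranges.

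Dll1, a ligand with few UMIs here, was at 6.65 ± 1.89 CPM in the venous-like class (240 UMIs in all) and 6.02 ± 3.23 in the arterial-like class (59 UMIs). Capillary-like sums held 2.58 ± 1.28 CPM and tip-like sums 2.01 (25 UMIs), and the pericyte-like, astrocyte-like, microglia-like and fibroblast-like classes stayed under its free RNA median of 0.590 CPM. The ranges of the arterial-like, smooth muscle-like, capillary-like and tip-like classes overlapped, and the tip-like value was below the capillary-like one in 7 of 8 mice.

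The target genes split along the same line as the receptors. Heyl, a target of NOTCH3 in mural cells, was at 228 ± 38.3 CPM in pericyte-like and 173 ± 53.4 in smooth muscle-like sums, 21.3 ± 9.1 in fibroblast-like sums and at most 2.10 elsewhere in the wall and glia. Its UMIs were seen in 69.9% of pericyte-like droplets and 0.124% of microglia-like droplets, or 35.2% and 0.0238% after thinning. Hey1, a target in arterial endothelium, was at 193 ± 47.3 CPM in arterial-like, 73.2 ± 17.9 in capillary-like and 63.5 ± 25.4 in tip-like sums, and at 12.4 ± 3.6 in venous-like sums, under its free RNA median of 15.2. Astrocyte-like sums held 60.0 ± 6.8 CPM of Hey1, in the range of the tip-like values, and pericyte-like sums 7.31.

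Endothelial zones were next compared within mice, with edgeR's quasi-likelihood test on UMIs summed per mouse and class, the mouse as a block, and Benjamini-Hochberg adjustment over all genes tested, as in all class comparisons below. Zones were drawn by clustering and named by marker lists, so many genes differ between them, and the share over all genes is given beside each count. Between arterial-like and capillary-like sums 32.4% of 10040 genes passed the threshold of 0.05, and 16.3% did so as higher in the arterial-like class. Of the 7 members with enough UMIs to be tested, 6 were higher in the arterial-like class and none was lower. Their median log2 difference was 0.75, against -0.009 over all genes.

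Jag1 differed most, with 157.9, 183.5, 152.1 and 232.8 CPM in the arterial-like sums of saline mice 1 to 4 and 197.3, 157.5, 182 and 125.7 in those of ancrod mice, against 45.75 to 75.75 in the 8 capillary-like sums. The log2 difference was 1.46 ± 0.08 (SE, adjusted p = 1.539e-13, edgeR). All 8 arterial-like values were above all 8 capillary-like ones.

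Hey1 held 220.6, 198.4, 153.3 and 167.4 CPM in arterial-like sums of saline mice and 295, 179.1, 182 and 149.2 in those of ancrod mice. In capillary-like sums the values were 86.7, 66.86, 69.44 and 66.91 in saline mice and 107.4, 78, 63.37 and 46.98 in ancrod mice. Arterial-like Hey1 was higher by 1.38 ± 0.06 on the log2 scale (adjusted p = 4.553e-16, edgeR), with no overlap between the zones. Ancrod mouse 1 was the highest of the 8 in both zones.

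The remaining 4 were Jag2 (log2 difference 1.10 ± 0.05, adjusted p = 6.661e-15, edgeR), Notch4 (0.75 ± 0.08), Notch1 (0.58 ± 0.05) and Dll4 (0.53 ± 0.06). All 6 genes were higher in the arterial-like class in 8 of 8 mice. Notch2, with 151 UMIs in arterial-like sums, was the member that did not pass (-0.36 ± 0.17, adjusted p = 0.1105, edgeR). It passed the threshold as lower without saline mouse 2 (-0.55, adjusted p = 0.01786, edgeR).

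**Figure D2:**
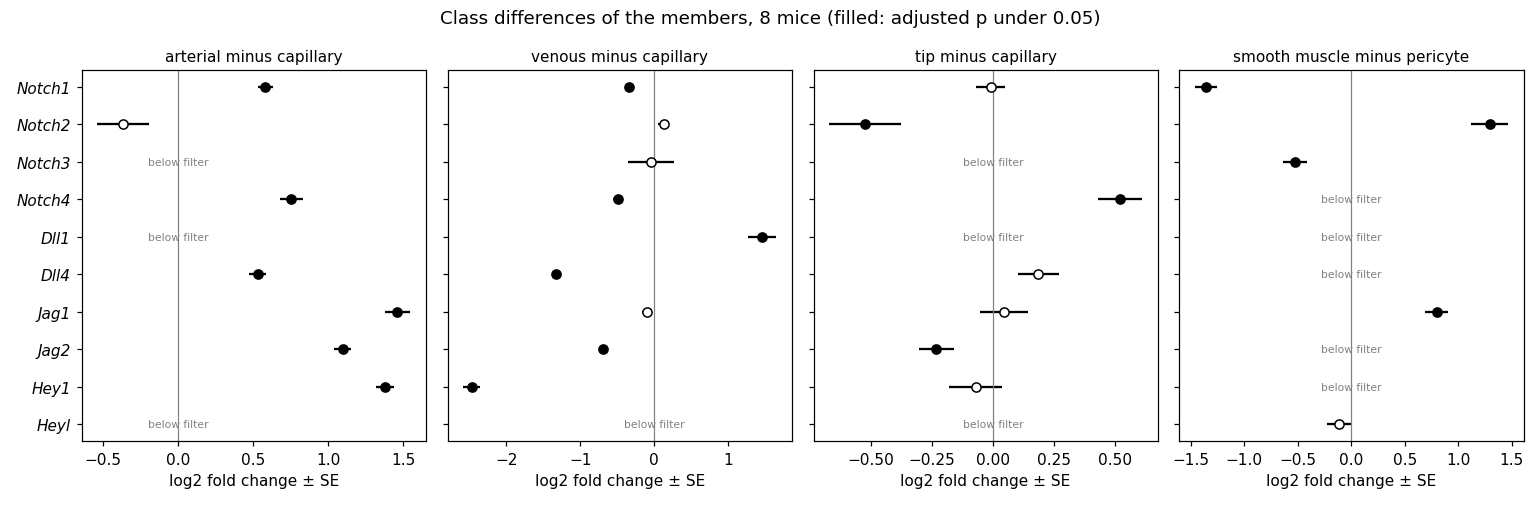
Log2 fold change ± SE of each member in 4 class comparisons, fitted over 8 mice with the mouse as a block (filled points: adjusted p under 0.05). Arterial-like differences lie to the right of 0 for 6 of 7 genes, and the venous-like ones to the left for 5 of the 6 that passed.

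In venous-like sums Hey1, Dll4, Jag2, Notch4 and Notch1 were lower than in capillary-like sums and Dll1 was higher. The venous marker list included the leukocyte adhesion genes Vcam1, Icam1 and Selp, which were among the leading genes of venous-like clusters. Venous-like droplets held a median of 26269.5 UMIs and capillary-like droplets 8099. The part of an activated endothelial state, as opposed to venous position, in these differences was not tested. Of 11053 genes 49.7% passed the threshold between the venous-like and capillary-like classes, 25.2% as lower and 24.5% as higher in the venous-like class. Of 9 members tested, 5 were lower, 1 was higher and 3 did not pass, with a median log2 difference of -0.34 against -0.01 over all genes.

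Hey1 fell furthest toward the venous-like class, to 9.736, 10.06, 9.855 and 18.42 CPM in saline mice and 12.8, 17.07, 11.87 and 9.058 in ancrod mice. The difference was -2.47 ± 0.11 on the log2 scale (adjusted p = 7.684e-12, edgeR). The venous-like mean of 12.4 CPM was under the free RNA median of 15.2, while microglia-like sums held 0.363 CPM of Hey1. The part of free RNA in the difference was not tested. Dll4 was at 37.52, 52.71, 53.42 and 49.33 CPM in venous-like sums of saline mice and 59.96, 46, 65.29 and 51.81 in those of ancrod mice, below all 8 capillary-like values (102.1 to 175.8). Its difference was 2.51-fold (log2 -1.32 ± 0.06, adjusted p = 8.141e-12, edgeR). Jag2 (-0.69 ± 0.05), Notch4 (-0.49 ± 0.06) and Notch1 (-0.34 ± 0.05) were also lower, each in 8 of 8 mice.

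Dll1 was the exception. It was at 6.887, 6.519, 7.096 and 3.043 CPM in venous-like sums of saline mice and 5.85, 6.037, 8.379 and 9.42 in those of ancrod mice, while capillary-like sums held 1.87, 3.104, 2.568 and 1.032 in saline and 5.24, 2.08, 1.7 and 3.081 in ancrod mice. Each mouse had the higher value in its venous-like sum, though the ranges overlapped (log2 difference 1.46 ± 0.19, adjusted p = 4.732e-06, edgeR). Jag1, Notch2 and Notch3 did not pass, at -0.10 ± 0.07, 0.13 ± 0.08 and -0.04 ± 0.31. Jag1 passed as lower without ancrod mouse 4 (-0.16, adjusted p = 0.02314, edgeR).

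In tip-like sums, which come from cells with the sprouting markers Apln and Angpt2, Notch4 was higher and Notch2 and Jag2 were lower than in capillary-like sums. Here 57.7% of 10209 genes passed, 29.0% as higher and 28.7% as lower in tip-like sums, and 3 of 7 members did. Notch4 was at 77.98, 66.88, 48.81 and 71.6 CPM in saline and 87.1, 88.09, 65.31 and 59.23 in ancrod mice, against 62.52, 61.97, 48.4 and 39.5 and 64.04, 55.81, 50.26 and 36.97 in the capillary-like sums of the same mice. The log2 difference was 0.52 ± 0.09 (adjusted p = 6.798e-05, edgeR), with the tip-like value higher in 8 of 8 mice.

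Notch2 was lower (-0.52 ± 0.15, adjusted p = 0.005242, edgeR) in 8 of 8 mice, at levels under its free RNA median of 80.0 CPM in both classes. Tip-like droplets held a median of 32763 UMIs and capillary-like droplets 8099, and the part of free RNA in the Notch2 difference was not tested. Lower as well was Jag2 (-0.23 ± 0.07, adjusted p = 0.01114, edgeR) in 7 of 8. Jag2 did not pass after each droplet was thinned to 2000 UMIs (-0.32, adjusted p = 0.3133, edgeR). In the 4 ancrod mice alone neither Notch2 (-0.29, adjusted p = 0.1946, edgeR) nor Jag2 (-0.18, adjusted p = 0.1612, edgeR) passed, and Notch4 did. Dll4, the ligand associated with tip cells, did not pass (0.19 ± 0.08, adjusted p = 0.06948, edgeR): it held 92.6, 196.7, 119.5 and 154.5 CPM in tip-like sums of saline mice and 185, 155, 131.8 and 110.5 in those of ancrod mice. It passed as higher without saline mouse 1 (0.21, adjusted p = 0.04482) and without ancrod mouse 4 (0.25, adjusted p = 0.01491), both by edgeR, and after thinning (0.52, adjusted p = 0.01894, edgeR), but was at -0.14 at the halved clustering resolution. Notch1, Jag1 and Hey1 were within 0.07 of 0 on the log2 scale. At the halved clustering resolution Hey1 was at -0.47 and passed as lower (adjusted p = 0.002766, edgeR). These are fitted values, scaled by TMM, and the median gene was 0.14 lower in tip-like than in capillary-like sums in plain log2 CPM. On the CPM scale Dll4 in tip-like sums was higher in 5 of 8 mice, and Notch1 and Jag1 were each lower in 7 of 8 and Hey1 in 5 of 8.

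Between the mural classes, 54.2% of 7544 genes passed, as did 4 of 5 members tested. The median gene was 0.38 lower in smooth muscle-like sums in plain log2 CPM, and the fitted differences are relative to that shift. Notch1 was lower in smooth muscle-like sums, with 96.12, 81.34, 102.2 and 96.32 CPM in saline and 65.17, 88.21, 95.83 and 104.8 in ancrod mice, against 316.2, 270.5, 321.7 and 340.6 and 206.3, 270.5, 277.7 and 308.2 in pericyte-like sums. The groups of values were far apart in all 8 mice (log2 difference -1.36 ± 0.10, adjusted p = 8.168e-10, edgeR).

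Notch3 was also lower in smooth muscle-like sums (-0.52 ± 0.11, adjusted p = 0.0005321, edgeR), in 8 of 8 mice. Fitted on the 4 saline mice alone it did not pass (-0.27, adjusted p = 0.07286, edgeR). Notch2 was higher (1.29 ± 0.17, adjusted p = 2.538e-06, edgeR) and so was Jag1 (0.80 ± 0.11, adjusted p = 2.714e-06, edgeR), both in 8 of 8 mice. Pericyte-like sums held 50.25 ± 11.3 CPM of Notch2, under its free RNA median of 80.0, and the part of free RNA in this difference was not tested. Heyl did not pass (-0.11 ± 0.12, adjusted p = 0.4669, edgeR), although its plain CPM was lower in smooth muscle-like sums in 8 of 8 mice.

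A list of 46 other genes of the pathway gave shares near those of all genes in each comparison. In arterial-like against capillary-like sums 13 of 34 tested passed (38.2%), with Psen2 and Ncstn, parts of the gamma-secretase that cleaves the receptor, and Nrarp, a feedback inhibitor and target, the largest rises (log2 0.46, 0.38 and 0.42). The co-activator Maml3 (-0.84), the ligand-endocytosis ligase Mib1 (-0.29) and the glycosyltransferase Mfng (-0.28) showed the largest falls. Psen2 (0.29) and Nrarp (0.22) did not pass in ancrod mice alone, and Nrarp did not pass without the block (adjusted p = 0.0874, edgeR). Mfng did not pass without ancrod mouse 4 (-0.21, adjusted p = 0.06811, edgeR) or in saline mice alone (-0.19, adjusted p = 0.2047, edgeR). With droplets thinned to 2000 UMIs, Ncstn (0.34, adjusted p = 0.2673), Mib1 (-0.21, adjusted p = 0.3) and Mfng (-0.05, adjusted p = 0.9149) did not pass, all by edgeR.

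In venous-like sums 19 of 37 passed (51.4%), 9 higher and 10 lower than in capillary-like sums. Hes1, a repressor and target of the pathway, was lower (-0.74), at 397 ± 148 CPM against 662 ± 169, and Nrarp was lower too (-0.53). The acetyltransferase Kat2a (0.84), Psen2 (0.82) and Maml3 (0.53) were the largest rises. Aph1b, another part of gamma-secretase, was lower at -0.57 but did not pass without saline mouse 3 or without ancrod mouse 2, 3 or 4 (lowest adjusted p among these 0.0548, edgeR).

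In tip-like sums 21 of 34 passed (61.8%), led by Nrarp (log2 1.14, adjusted p = 9.762e-08, edgeR), which stood at 57.8 ± 15.6 CPM against 28.01 ± 6.1. Aph1a (0.69) and Kat2a (0.60) were the next largest rises and Aph1b (-1.15), the RBPJ-associated corepressors Cir1 (-0.61) and Spen (-0.53) the largest falls, and Kat2a did not pass in ancrod mice alone (0.33, adjusted p = 0.2093, edgeR). Between the mural classes 14 of 28 passed (50.0%). Hes1 was higher in smooth muscle-like sums (1.33), at 808 ± 167 CPM against 399 ± 99.6, as were the ligase Neurl1b (1.30) and the sheddase Adam17 (0.72), and Maml2 (-1.62) and Aph1b (-1.33) were lower. Dtx4, a ligase that acts on Notch, was at 71.9 ± 6.5 CPM in pericyte-like sums and had 4 UMIs in all smooth muscle-like sums, so that its fitted fold rests on a level near 0. Adam17 did not pass in ancrod mice alone (0.65, adjusted p = 0.05759, edgeR).

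The effect of fibrinogen depletion was tested in each class with edgeR's quasi-likelihood test on the summed UMIs of 4 ancrod and 4 saline mice. No member passed the threshold in any of 10 classes (the 9 above and all endothelial-like droplets together), with 5 to 10 members tested per class. This was also the case for nearly all genes: 0.0% of the genes tested passed in each class except the pericyte-like one, where 33 of 8940 did (0.369%, of which 0.336% higher and 0.0336% lower in ancrod mice). Genes with an unadjusted p under 0.05 numbered 286 to 1574 per class, where chance alone gives a share of about 0.05. They were 354 of 11036 in venous-like, 286 of 4799 in smooth muscle-like and 1574 of 12640 in fibroblast-like sums. DESeq2 called 0 to 89 genes per class and no member. The make-up of the libraries, which was not tested, is given here as it stands beside these comparisons. Endothelial-like droplets numbered 1184, 993, 1238 and 1021 in saline mice 1 to 4 and 377, 603, 525 and 777 in ancrod mice, with no overlap. Fibroblast-like droplets numbered 218, 157, 28 and 221 in saline and 318, 112, 577 and 440 in ancrod mice, where ancrod mouse 2 lay within the saline range. Tip-like droplets were 3.13 ± 1.29% of endothelial-like ones in saline mice and 7.43 ± 4.43% in ancrod mice (n = 4 each), and ancrod mice 2 and 4 lay within the saline range. Of the 9 capillary-like clusters, the one led by Fmo2 and Fam13a held the largest share of saline droplets (16%, against 16.1% of ancrod droplets) and the one with Egr1 and Egr3 among its leading genes the largest share of ancrod droplets (19.3%, against 10.3%). In the pericyte-like class the cluster led by Trpc6 held 28.5% of ancrod and 11% of saline droplets. These cluster shares pool the droplets of the 4 mice of a group, so they give no spread between mice.

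Notch3 in smooth muscle-like sums had the lowest unadjusted p among the members. Saline mice 1 to 4 had 837.6, 873.5, 610.1 and 924.7 CPM and ancrod mice 431.4, 705.7, 512.6 and 625.4. Saline mouse 3 was the low one of its group, inside the ancrod range, and the other 3 saline mice were above all ancrod mice. The log2 difference was -0.49 ± 0.18 (unadjusted p = 0.01372, adjusted p = 0.8135, edgeR), with differences of the group means in log2(CPM + 1) of -0.50 in batch 1 and -0.56 in batch 2. The pericyte marker sums in the same libraries were 3232 to 5847 CPM in saline and 1862 to 5123 in ancrod mice, and their part in the Notch3 difference was not tested.

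In pericyte-like sums the same receptor was at 1184, 1189, 1174 and 1349 CPM in saline and 1059, 1195, 1154 and 1198 in ancrod mice (-0.04 ± 0.11, 95% interval -0.24 to 0.17, adjusted p = 0.9477, edgeR). Its groups overlapped, with saline mouse 4 above the rest and ancrod mouse 1 below. In fibroblast-like sums Notch3 was at 16.03, 14.45, 10.15 and 13.23 CPM in saline and 9.662, 6.414, 8.983 and 12.99 in ancrod mice (-0.51 ± 0.22, unadjusted p = 0.04258, adjusted p = 0.389, edgeR), all under its free RNA median of 19.5 CPM. Ancrod mouse 4 was within the saline range, and the difference was -0.63 in batch 1 and -0.02 in batch 2.

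Notch4 in fibroblast-like sums, where it was near 2 CPM, gave 3.435, 2.507, 1.45 and 2.318 in saline and 1.683, 1.995, 1.734 and 1.469 in ancrod mice (-0.61 ± 0.25, unadjusted p = 0.03808, adjusted p = 0.3786, edgeR). These groups overlapped, since saline mouse 3 had the lowest value of all. Every value was under the free RNA median of Notch4, 7.99 CPM. Fibroblast-like sums of ancrod mice held 584.8 to 776.1 CPM of endothelial markers and those of saline mice 731.4 to 881.8, and the part of these markers in the Notch4 values was not tested. All 7 members tested in the fibroblast-like class had a negative estimate, with a median of -0.27 against -0.008 over all genes, and none passed. In this class the cluster led by Tll1 held 17.8% of saline and 5.8% of ancrod droplets, pooled over the mice of each group. The one led by the cell division gene Birc5 held 7.9% and 14.3%, pooled in the same way. The part of this make-up in the estimates was not tested.

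In the endothelium the treatment estimates were small for the best measured genes. For Dll4 in capillary-like sums the values were 102.1, 139.5, 130.3 and 134 CPM in saline and 175.8, 120.8, 123.8 and 148.3 in ancrod mice. The groups overlapped, with saline mouse 1 lowest and ancrod mouse 1 highest. Over all endothelial-like droplets the log2 difference was 0.05 ± 0.08 for Notch1, 0.09 ± 0.14 for Dll4, -0.003 ± 0.16 for Notch4, -0.13 ± 0.07 for Jag2 and -0.003 ± 0.19 for Hey1.

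Groups that did not overlap were found for 2 of 7 members tested in the tip-like class, where 2.47% of all genes had this property. Jag1 was at 55.23, 53.51, 53.09 and 50.12 CPM in saline and 59, 67.76, 59.37 and 74.26 in ancrod mice (0.28 ± 0.14, unadjusted p = 0.06075, adjusted p = 0.9998, edgeR). Notch1 was at 167.3, 158.2, 161.8 and 138.1 CPM in saline and 178, 184.7, 171.6 and 189.2 in ancrod mice (0.20 ± 0.11, adjusted p = 0.9998, edgeR). For both genes all 4 ancrod mice were above all 4 saline mice, and neither passed. Over all classes, 42 of 75 pairs of member and class had the same sign of difference in both batches, of which batch 2 held 1 mouse per group. Tip-like droplets numbered 19 to 59 per mouse.

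Heyl over all endothelial-like droplets was the third such case (1 of 10 members, 3.52% of all genes), at 0.6517, 0.5928, 0.7246 and 0.456 CPM in saline and 1.048, 0.7858, 0.8108 and 1.519 in ancrod mice, or 92 UMIs in all. The estimate was 0.79 ± 0.32 (unadjusted p = 0.03371, adjusted p = 0.6342, edgeR). All ancrod values were above all saline values and below the free RNA median of 4.59 CPM. Summed pericyte markers in these libraries were 244.6 to 417 CPM in saline and 252.1 to 372.7 in ancrod mice, with overlapping groups, and fibroblast markers were 10.35 to 32.64 and 14.46 to 246.2, whose part was not tested. In the other 8 classes no member with enough UMIs to be tested had groups that did not overlap. Among members too rare to be tested, the groups lay apart for Dll1 in tip-like (25 UMIs) and astrocyte-like sums (18 UMIs), higher in ancrod mice, and for Heyl in venous-like sums (14 UMIs), higher in saline mice. The shares that had this property were 2.57% in arterial-like, 2.36% in capillary-like, 1.85% in venous-like and 5.65% in pericyte-like sums. They were 2.92% in smooth muscle-like, 6.72% in fibroblast-like, 2.37% in astrocyte-like and 1.92% in microglia-like sums. All these shares, and those of the tip-like and all endothelial-like sums, are over genes with enough UMIs to be tested. No share is given for rarer genes, so the rare members have nothing to be set beside.

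**Figure D3:**
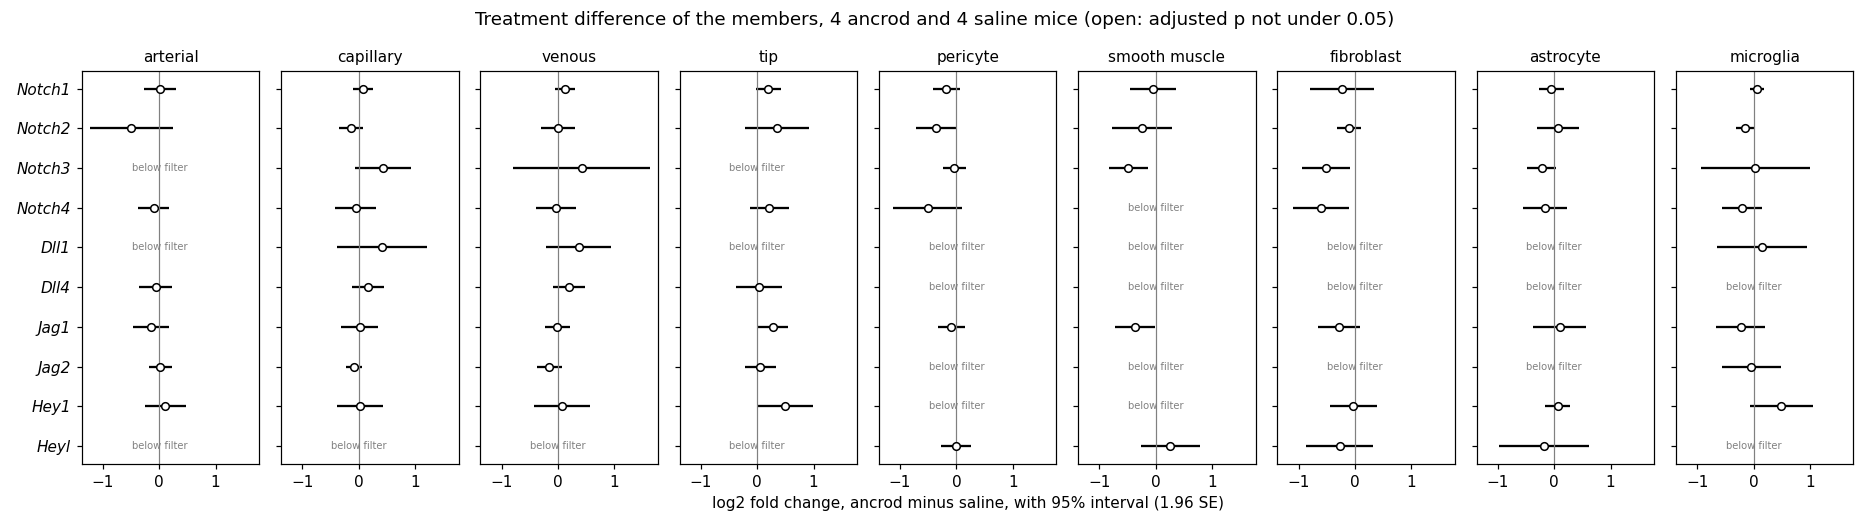
Log2 fold change, ancrod minus saline, with its 95% interval, for each member in 9 classes, fitted over 4 ancrod and 4 saline mice (grey text: too few UMIs to be tested). All points are open, since none had an adjusted p under 0.05, and the widest intervals belong to genes with few UMIs such as Dll1 and Notch3 in endothelial classes.

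**Figure D4:**
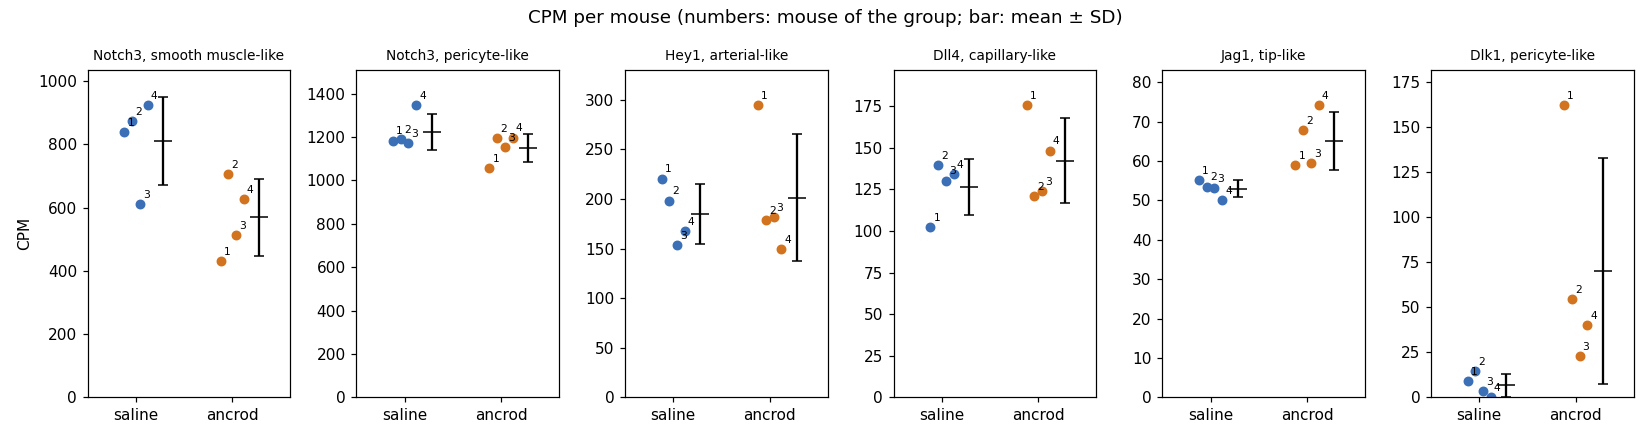
CPM in each of 4 saline and 4 ancrod mice (points, numbered by mouse) with the mean ± SD of each group, for Notch3 in both mural classes, Hey1 in arterial-like, Dll4 in capillary-like and Jag1 in tip-like sums, and the ligand-like gene Dlk1 in pericyte-like sums. The groups overlap for Notch3, Hey1 and Dll4 and not for Jag1 and Dlk1.

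Whether depletion altered the differences between classes was tested for 28 combinations of member and class pair by a two-sided exact permutation test over mice, in which 70 arrangements allow no p below 0.02857. A single combination at that floor could not pass after adjustment over 28 tests, so passing was practically out of reach in this design, and none did (smallest adjusted p = 0.48). Notch2 in tip-like minus capillary-like sums was the combination at that floor (exact permutation test), from 2 to 31 UMIs per tip-like sum. Its difference in plain log2(CPM + 1) was -1.07 ± 0.72 in saline and -0.38 ± 0.19 in ancrod mice (SD, n = 4 each). On the same scale, which is not that of the fitted values, the Notch3 difference between smooth muscle-like and pericyte-like sums was -0.61 ± 0.23 in saline mice. It was -1.04 ± 0.24 in ancrod mice (exact permutation p = 0.08571). The Dll4 difference between arterial-like and capillary-like sums was 0.65 ± 0.12 in saline and 0.42 ± 0.12 in ancrod mice (exact permutation p = 0.05714).

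Of the 46 other pathway genes, between 19 and 41 were tested per class and 1 passed in the ancrod comparison: Dlk1 in the pericyte-like class, 1 of 32 tested (3.12%). Dlk1 encodes a membrane protein related to the Delta ligands that lacks their receptor-binding domain. It was at 8.94, 14.39, 3.36 and 0 CPM in saline mice 1 to 4 and 162.3, 54.37, 23.14 and 40.2 in ancrod mice. All ancrod mice were above all saline mice, and ancrod mouse 1 was far above the rest. The log2 difference was 3.35 ± 0.61 (adjusted p = 0.03557, edgeR).

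These values came from few droplets. In ancrod mice 1 to 4 the UMIs were found in 8 of 92, 15 of 174, 5 of 128 and 3 of 104 droplets, and the single richest droplet held 120 of 140, 25 of 81, 14 of 20 and 23 of 27 UMIs. In saline mice 6 of 207, 8 of 166, 3 of 153 and 0 of 146 droplets had a UMI, and none had more than 3. Droplets with 10 or more UMIs were thus present in each of the 4 ancrod mice (1, 3, 1 and 1) and in no saline mouse. The smooth muscle-like class held no Dlk1 UMI in either group and the fibroblast-like class 0.263 CPM in saline and 0.261 in ancrod mice. All endothelial-like droplets together held 0.104 ± 0.128 CPM (6 UMIs) in saline and 1.123 ± 1.11 (46 UMIs) in ancrod mice (SD, n = 4 each), with overlapping groups.

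The Dlk1 call did not hold without ancrod mouse 1 (log2 2.55, adjusted p = 0.05692), without ancrod mouse 2 (3.49, adjusted p = 0.07096) or without any 1 of the saline mice 1 to 4 (3.52, 3.97, 3.15 and 2.97, adjusted p = 0.09909, 0.1026, 0.1118 and 0.06711), all by edgeR, nor with DESeq2 (3.44, adjusted p = 0.05358). It held without ancrod mouse 3 (3.63, adjusted p = 0.006671) and without ancrod mouse 4 (3.51, adjusted p = 0.01453), both by edgeR. Within the pericyte-like sums fibroblast markers were at 828.8 to 1027 CPM in saline and 1124 to 1587 in ancrod mice and dissociation-response genes at 1902 to 4122 and 4112 to 7402, and their part in the Dlk1 difference was not tested.

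The genes whose levels ran most like each member over 124 sums of 17 classes, among 13863 genes, were named by Pearson's r of log2(CPM + 1), as a description of values that share libraries. For Notch3 these were Pth1r, Ano1 and Slc2a4 (0.934, 0.93 and 0.929) and for Heyl Foxs1, Hspb2 and Kcne4 (0.978, 0.965 and 0.959). Dll4 ran with Tie1, Sox18 and Foxl2 (0.961, 0.958 and 0.957), Notch4 with Adgrf5, Tead4 and Tie1 (0.904, 0.893 and 0.892) and Jag2 with Sgpp2, Depp1 and Sox18 (0.934, 0.914 and 0.912). Tie1, an endothelial receptor, was among the markers used to find endothelial droplets. Jag1 ran with Gng11, Ehd2 and Foxc1 (0.9, 0.896 and 0.895). The values were lower for Hey1 (Gstm7, Myo10 and Lpar4, 0.861, 0.852 and 0.849), Notch2 (Prkcd, Myd88 and Runx1, 0.844, 0.815 and 0.813) and Notch1 (Ctdsp1, Cpne3 and Pttg1ip, 0.818, 0.817 and 0.803), and lowest for Dll1 (Lims2, Atp10a and Foxf1, 0.747, 0.696 and 0.693).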

How the data were processed

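Single-cell libraries of 8 mice, 4 with saline and 4 with ancrod, were prepared with the 10x 3′ kit, and the authors made the deposited count matrices of UMIs per gene and droplet with Cell Ranger 7.1.0 and STAR on GRCm39, per the labels. Droplets with at least 2000 UMIs and under 20% mitochondrial UMIs were kept (46216; 5080 to 6277 per mouse), 2144 were removed by a doublet score, and the rest were clustered with Leiden (leidenalg 0.10.2) without the 10 members and 46 listed pathway genes. Clusters were named from marker lists, and 4678 droplets stayed unnamed. UMIs were summed per mouse and class of at least 10 droplets. OPC-like droplets reached that in 3 mice and were not tested. Tests used edgeR 4.0.16 (quasi-likelihood, TMM, low counts filtered, Benjamini-Hochberg over all genes, threshold 0.05) in R 4.3.3, with DESeq2 1.42.0 as an alternative. The edgeR test was checked on simulated data for treatment in capillary-like, pericyte-like and arterial-like sums and for arterial-like minus capillary-like sums. DESeq2 and the edgeR fits of the other classes and comparisons were not checked in this way. CPM is UMIs scaled to a sum of 1e+06, and shares of droplets with a UMI were also taken after thinning to 2000 UMIs. Free RNA was read from droplets of at most 100 UMIs. The SE of an edgeR value was derived as its absolute log2 fold change over the square root of its F statistic. The 95% intervals use this SE and assume normal errors of the fitted values. All 10 members are reported in every class, other pathway genes past the threshold up to the 3 largest rises and 3 largest falls per comparison, and the 3 genes with the highest r per member. Hey2 and Hes5 were named after their values were seen. The members and lists were chosen with earlier results of these data known. Deviations of same-numbered mice correlated at -0.386 to 0.262 in 40 pairs, with 7 above 0.1, of which 5 were the batch 2 pair, mouse 4 of each group. In no class were all 4 pairs above 0.1, so mice were not treated as pairs between groups. Batch, doublets, depth, mitochondrial share, thinning, clustering resolution, normalization, filter and each mouse were varied. Because only 1 mouse per group was in batch 2, batch effects have no replicate there.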

Additional observations from a re-analysis of the deposited data

Results flagged for a closer look

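Among 150 groups of 4 mice, each a member in a class and treatment group, 6 had a value whose gap to the nearest of the other 3, over the group's range, was above the 95% critical value in Dixon's test. Chance alone gives about 1 in 20 groups. Of the 6, 4 belonged to saline mouse 4, the only saline mouse of batch 2. In its pericyte-like sum Notch3 was at 1349 CPM (the other saline mice at 1174 to 1189) and Heyl at 286.8 (208.9 to 216.3). In its venous-like sum Hey1 was at 18.42 CPM (9.736 to 10.06) and Dll1 at 3.043, from 19 UMIs (6.519 to 7.096). The others were Hey1 in the capillary-like sum of saline mouse 1, at 86.7 CPM (66.86 to 69.44), and Notch2 in the tip-like sum of ancrod mouse 4, at 12.38 CPM from 14 UMIs (14.25 to 14.52). Batch and mouse cannot be told apart here.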

How the results depend on the processing

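No member passed in any ancrod comparison under any alternative that could be fitted, including DESeq2, RLE normalization, no filter, batch as a covariate, batch 1 alone and each mouse left out (0 to 0 members). With the replicate number as a block between groups the count was also 0 in each class, and 83 genes passed in the pericyte-like class instead of 33. The number of genes called there was unstable: 89 with DESeq2, 249 without the filter, 55 with batch as a covariate, 104 with doublets kept, 13 at the halved clustering resolution, 7 after thinning, 3 under 10% mitochondrial UMIs, 1 at 5000 UMIs, and 1 to 72 with 1 mouse left out. Counts of members passing between classes were 6 to 8 (arterial-like), 4 to 7 (venous-like), 1 to 5 (tip-like) and 3 to 6 (smooth muscle-like): the tip-like count of 3 became 1 (Notch4) in ancrod mice alone, with 4 mice, and 5 at the halved resolution. With 1 mouse left out they were 6 to 7, 6 to 7, 3 to 4 and 4 to 4, and without the replicate block 6, 6, 3 and 4.

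Among the members, after thinning to 2000 UMIs Notch1 in venous-like (-0.22, adjusted p = 0.08534, edgeR) and Jag2 in tip-like sums (-0.32, adjusted p = 0.3133, edgeR) no longer passed, with fewer UMIs in each sum, and Dll4 in tip-like sums did (0.52, adjusted p = 0.01894, edgeR). At the halved resolution Hey1 in tip-like (-0.47) and Notch3 in venous-like sums (-0.90) passed as lower, and the cause was not tested. Pdlim1 and Selp were among the leading genes of the tip-like cluster at that resolution. In the clustering used elsewhere they were among those of a venous-like cluster. No called value changed sign. Dlk1 was too rare to be tested after thinning and did not pass at 5000 UMIs (log2 3.13, adjusted p = 0.08331, edgeR) or under 10% mitochondrial UMIs (3.35, adjusted p = 0.05983, edgeR), beside 3.35 in the fit reported. It did pass with RLE normalization, without the filter, with batch as a covariate, in batch 1 alone, with the replicate block, with doublets kept and at the halved resolution (log2 3.01 to 3.37, largest adjusted p = 0.04696, edgeR). The tests of treatment on class differences gave 0 under each alternative, all of them added after the data were seen, in a design whose smallest exact permutation p of 0.02857 over 28 tests put passing practically out of reach. For the OPC-like class fits were possible only with doublets kept and at the halved resolution, each with 0 members called.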

Other observations

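Outside the vessel wall, Notch2 was highest in neutrophil-like sums, at 366 ± 90.3 CPM (SD, n = 8 mice), with 174 ± 14.1 in border-associated macrophage-like and 130 ± 6.2 in dendritic-like sums, in each case more than its free RNA median of 80.0. Hey1 reached 138 CPM in ependymal-like sums (2 mice, 251 UMIs), and Jag2 was at 18.5 ± 5.6 CPM in neuron-like sums (n = 7 mice). OPC-like sums, available in 3 mice, held 130 ± 8.5 CPM of Notch1 and 10 UMIs of Dll1.

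Among other targets of the pathway, named after their values were seen, Hey2 was at 144 ± 20.5 CPM in pericyte-like and 125 ± 34.8 in smooth muscle-like sums and at 3.51 ± 2.36 in arterial-like sums, a mural distribution like that of Heyl rather than that of Hey1. Hes5 was at 72.6 ± 30.5 CPM in astrocyte-like sums and 126 ± 18.4 in OPC-like sums (n = 3 mice), and arterial-like sums held none. Nrarp was at 132 ± 37.0 CPM in pericyte-like and 147 ± 53.0 in smooth muscle-like sums.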
